A study of Mus musculus with 24 samples.

Results

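The 56 genes described here encode the machinery of G2 and mitosis, from the kinase that starts mitosis to the proteins that separate the daughter cells. They were listed by name from what their proteins are known to do, although earlier results of these data were known when they were chosen. All 56 were among the 27179 genes of the count table. RNA was sequenced from 3 sorted populations of mouse bone marrow, namely HSC (haematopoietic stem cells), MPP (multipotent progenitors) and HPC-1, which are restricted progenitors. Each of 8 mice gave 1 library per population. In 4 mice Phf6, an X-linked gene for a chromatin-associated PHD finger protein, had been deleted, and in 4 control mice it was intact, which makes 6 groups of 4 libraries. The mice came from 4 litters, each with 1 deleted and 1 control animal, and mice are numbered here by litter. For both groups the labels give the same strain, Phf6lox/Y;Tie2-creTg/+, a floxed allele in males with a Cre transgene that is active in endothelial and haematopoietic cells. They therefore do not state whether the controls carried Cre, and they give no age. Cells bearing CD3, B220, GR1 or TER119 were removed, and CD48, CD150, SCA1 and cKIT defined the sort gates.

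Entry into mitosis is driven by the kinase CDK1 bound to cyclin B, which CDC25 phosphatases switch on. Polo-like and Aurora kinases then build the spindle, the spindle checkpoint holds cells until every chromosome is attached, and the anaphase-promoting complex with its activator CDC20 destroys cyclin B and securin to end mitosis. Most of these genes are transcribed from late S phase to mitosis, under the MuvB complex with B-MYB and then FOXM1, so that their RNA is high in dividing cells and low in resting ones. In adult marrow most HSC are known to be quiescent, whereas multipotent and restricted progenitors divide more often.

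The promoters of such genes are known for 2 sequence elements, the cell cycle genes homology region (CHR), which the MuvB complex binds, and the CCAAT box, which NF-Y binds. Promoters of GRCm38.p6 from RefSeq, from 250 bases before to 50 after the annotated start, were found for 46 of the 56 genes. The CHR letters TTTGAA, on either strand, were present in 32 of the 46 promoters (69.57%), in 34 of 75 promoters of other mitotic genes (45.33%) and in 18.11% of all 27025 promoters. TTTAAA, the less usual CHR form, which reads the same on both strands, was in 10 of 46 (21.74%, and 13.16% of all promoters). CCAAT on either strand was in 33 of 46 (71.74%, and 37.92% of all), and 30 of 46 held CCAAT together with at least 1 of the CHR forms (65.22%, and 10.91% of all). The first start listed for each gene was used, and in 7 of the 46 it lay more than 250 bases inside the annotated span of the gene. Of the other 39, 27 held TTTGAA and 28 held CCAAT. A match of so few letters is a description of the sequence and not a mapped binding site. Aurkb, Ccna2, Cdc25c, Cdca2, Dlgap5, Incenp, Kif20a, Smc4, Spc24 and Tpx2 were not matched.

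Printed below are the 130 bases before the start of 5 genes that were lower in MPP than in HSC (Ccnb1, Ccnb2, Cdc20, Cdk1 and Ube2c), followed by those of Kif23, which did not pass that test. Each runs 5′ to 3′ on the strand of its gene, and capitals mark the CHR letters (TTTGAA in the usual form, or TTTAAA) and the CCAAT box, on the strand shown or as the reverse complement (TTCAAA for the usual CHR form, and ATTGG for the box). The Ccnb1 stretch is chr13:100786487-100786616 on the minus strand, Ccnb2 chr9:70421555-70421684 (minus), Cdc20 chr4:118437344-118437473 (minus), Cdk1 chr10:69352913-69353042 (minus), Ube2c chr2:164769799-164769928 (plus) and Kif23 chr9:61946800-61946929 (minus).
Ccnb1: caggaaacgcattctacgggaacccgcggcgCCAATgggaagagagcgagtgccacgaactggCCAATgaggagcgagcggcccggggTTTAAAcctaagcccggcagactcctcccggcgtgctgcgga
Ccnb2: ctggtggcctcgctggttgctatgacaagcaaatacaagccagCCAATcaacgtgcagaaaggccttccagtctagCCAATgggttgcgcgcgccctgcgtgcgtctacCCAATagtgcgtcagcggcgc
Cdc20: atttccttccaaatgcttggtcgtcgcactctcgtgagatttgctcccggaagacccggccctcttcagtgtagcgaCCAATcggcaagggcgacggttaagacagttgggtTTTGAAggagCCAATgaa
Cdk1: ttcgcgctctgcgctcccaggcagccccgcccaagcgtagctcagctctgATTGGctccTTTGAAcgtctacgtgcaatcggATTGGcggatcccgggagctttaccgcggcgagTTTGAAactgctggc
Ube2c: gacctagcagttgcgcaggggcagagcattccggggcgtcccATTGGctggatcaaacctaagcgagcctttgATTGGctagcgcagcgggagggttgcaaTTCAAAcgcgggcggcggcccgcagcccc
Kif23: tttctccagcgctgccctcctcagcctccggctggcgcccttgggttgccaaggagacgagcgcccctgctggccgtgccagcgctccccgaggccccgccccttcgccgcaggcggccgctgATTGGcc
In Cdc20 the CHR letters began 18 bases before the start, with a CCAAT on either side of them, and Cdk1 carried TTTGAA 71 and 15 bases before the start. Ccnb1 held TTTAAA in place of TTTGAA, below a pair of CCAAT boxes. Kif23 had a single reversed CCAAT in the stretch shown, and a TTTGAA just after the start that lies outside it. Ccnb2, which was lower in MPP, likewise had no CHR letters in its stretch, and its TTTGAA sites began at -167 and 5 relative to the start. Over the 46 genes, the median log2 difference between MPP and HSC of control mice, given gene by gene below, was -1.11 for the 32 with TTTGAA and -1.02 for the 14 without it.

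Libraries held 9658167 to 27786830 counts, and all 56 genes passed the filter on low counts in every comparison. Phf6 was lower in every deleted library than in every control library of its population, with log2 differences of -1.95 ± 0.22 (HSC), -1.82 ± 0.18 (MPP) and -2.08 ± 0.16 (HPC-1). Slamf1, which encodes the CD150 of the sort, was lower in MPP than in HSC (-5.16 ± 0.26 in controls), and Flt3 (+3.36 ± 0.21) and Cd34 (+1.74 ± 0.12), known on multipotent progenitors, were higher. Of 6 HSC markers, Slamf1 was the only one to pass as lower in MPP, whereas Hlf (1.15 ± 0.17) and Procr (0.81 ± 0.16) passed as higher. Hoxb5 (-0.80 ± 0.31, adjusted p 0.145), Fgd5 (0.10 ± 0.19) and Mecom (-0.05 ± 0.17) did not pass. A further list of 4 stem and progenitor genes held Kit, Ly6a, Gata2 and Meis1. Of these, Ly6a, which encodes the SCA1 of the sort, passed as higher in MPP (0.99). Gata2 passed as lower (-0.93), and Kit and Meis1 did not pass. SMART-Seq amplification was used for HSC and MPP but a TruSeq kit for HPC-1, so kit and population cannot be told apart for HPC-1 and its levels are not compared with the other populations. SMART-Seq does not mark the strand, and 12 of the 56 genes overlap another gene of the table, so some reads of Ccna2, Aurka, Cdc20, Kif20a, Kif20b, Nusap1, Prc1, Anln, Ect2, Smc4, Ncapd2 and Ncapg may come from a neighbour. In bulk RNA, fewer dividing cells and less of these RNAs per cell cannot be told apart.

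In control mice, mitotic genes were lower in MPP than in HSC. The 56 genes took 0.718, 0.716, 0.630 and 0.671 percent of the counts in the HSC libraries of mice 1 to 4 and 0.363, 0.339, 0.380 and 0.333 percent in the MPP libraries of the same mice, or 0.684 ± 0.0420 and 0.354 ± 0.0215 (mean ± SD, n = 4). Every HSC library lay above every MPP library. With edgeR's quasi-likelihood test and Benjamini-Hochberg adjustment over 13636 genes, 52 of the 56 were lower in MPP at an adjusted p under 0.05, against 4.78% of all genes tested, and 0 were higher, against 4.06%. Their median log2 difference was -1.05 (range -1.72 to -0.01), while the median over all genes was -0.01, and all 56 were below 0, where 50.8% of all genes were. Of the 52 calls, 45 held in each of 14 alternative analyses (6 other settings and 8 fits that left out 1 library each). For 50 of the 56 no MPP library reached the lowest HSC library, against 7.91% of all genes. Within each mouse, 55, 55, 53 and 56 of the 56 genes were lower in MPP than in HSC in mice 1 to 4, where 48.7 to 50.4% of all genes were. The higher share was thus in the population known for its quiescence.

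**Figure D1:**
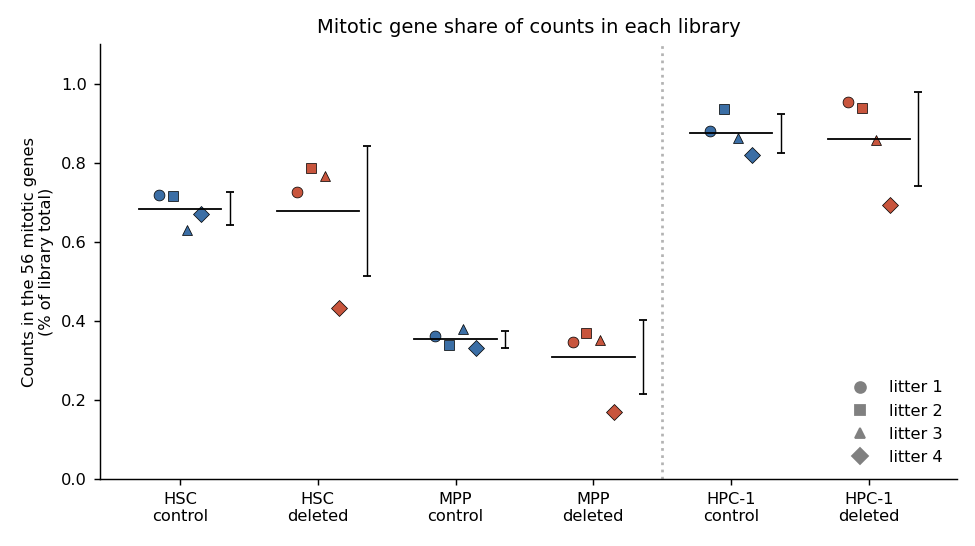
Share of each library's counts that fell in the 56 mitotic genes (vertical axis, percent of the library total) for the 6 groups; points are libraries shaped by litter, horizontal lines group means and side bars mean ± SD. HSC controls lie at 0.63 to 0.718%, MPP controls at 0.333 to 0.38%, and the library of deleted mouse 4 is the lowest of its group in all 3 populations; HPC-1, right of the dotted line, was made with another kit.

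All 6 genes of the mitotic switch were lower in MPP. Cdk1, the mitotic kinase, stood at 149.8, 148, 129 and 179 CPM (counts per library total brought to the same scale with TMM factors) in the control HSC libraries of mice 1 to 4 and at 64.97, 70.7, 60.2 and 58.6 CPM in their MPP libraries. The lowest HSC library was thus well above the highest MPP library, and the log2 difference was -1.26 ± 0.13 (SE, n = 4 and 4) with an adjusted p of 9.17e-05. Ccnb1, the cyclin B whose partner it is, was at 125, 130.5, 82.97 and 93.3 CPM in HSC and 56.95, 49.8, 61.5 and 44.2 CPM in MPP (-1.03 ± 0.17, adjusted p 0.00212), again without overlap. Ccna2, the cyclin of S phase and G2, differed by -1.20 ± 0.14, and Ccnb2, the second mitotic cyclin, by -0.81 ± 0.14. Cdc25b, a phosphatase that starts CDK1 activation at the centrosome, differed by -1.13 ± 0.17. Cdc25c, its relative, had the widest error of the 6, at -1.20 ± 0.30, and its call was lost in 4 of 14 alternative analyses.

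The 5 mitotic kinases were all lower in MPP, over a wide range. Plk1, the polo-like kinase that acts from mitotic entry to cytokinesis, was at 78.6, 79.8, 61.8 and 59.8 CPM in HSC and 33.7, 29.5, 16.96 and 25.4 CPM in MPP, a log2 difference of -1.41 ± 0.21 (adjusted p 0.00106). No MPP library came near the HSC range, although mouse 3 was lower than the others in MPP. Nek2, a kinase of centrosome separation, differed by -1.12 ± 0.22, Melk, a kinase of the AMPK family, by -1.11 ± 0.20 and Aurka, the Aurora kinase of the spindle poles, by -0.96 ± 0.15. Plk4, the kinase that controls centriole duplication, had the smallest difference of the 5 (-0.53 ± 0.15, adjusted p 0.0474) and missed the threshold in 9 of 14 alternative analyses.

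All 5 spindle checkpoint genes were lower in MPP, with a median of -0.81. Bub1b, whose product BUBR1 is part of the mitotic checkpoint complex, was at 126, 175, 123 and 167 CPM in HSC and at 71.5, 71.6, 75.9 and 67.9 CPM in MPP, where the 4 mice lay close together. Its log2 difference was -1.05 ± 0.14 (adjusted p 0.000484). Bub1, the checkpoint kinase at the kinetochore, varied more between mice in MPP, at 90.6, 144, 96.95 and 121 CPM in HSC and 47.2, 54.4, 86.02 and 72.1 CPM in MPP. Its groups were separated by a narrow gap, and the difference of -0.81 ± 0.20 was lost in 4 of 14 alternatives. Ttk, the kinase that recruits checkpoint proteins, differed by -1.02 ± 0.18. Mad2l1, an inhibitor of CDC20, differed by -0.81 ± 0.18 and was lost in 1 of 14 alternatives. Bub3, which also has a part in interphase, had the smallest difference of the 52 (-0.40 ± 0.11) and was lost in 8 of 14 alternatives.

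In the group of the anaphase-promoting complex and sister separation, in which Cdca3 was also placed, 4 of 5 genes were lower in MPP. Ube2c, the ubiquitin-conjugating enzyme of that complex, had the most negative difference of all 56 genes. It stood at 115, 109, 88.4 and 114 CPM in HSC and 31.6, 36.8, 30.2 and 31.6 CPM in MPP, a log2 difference of -1.72 ± 0.14 (adjusted p 1.46e-05). Cdc20, the activator of the complex, was at 149, 179.7, 156 and 156 CPM in HSC and 80.2, 70.5, 72.8 and 78.5 CPM in MPP (-1.09 ± 0.11, adjusted p 9.5e-05). For both genes the MPP libraries agreed closely with each other and lay below all HSC libraries. Cdca3, a trigger of mitotic entry, differed by -1.39 ± 0.17 and Espl1, which encodes separase, by -1.16 ± 0.26. Pttg1, which encodes securin, the inhibitor of separase, did not pass, at 48.7, 35.99, 34.8 and 35.98 CPM in HSC and 34.9, 38.4, 50.4 and 31.9 CPM in MPP with a log2 difference of -0.01 ± 0.18 (adjusted p 0.989). Its HSC and MPP libraries overlapped.

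The chromosomal passenger complex corrects faulty attachments and later acts at the midzone, and its 4 genes had the most negative median of the role groups, -1.37. Aurkb, its kinase, was at 135, 145, 134 and 136 CPM in HSC and 55.2, 47.8, 47.1 and 50.3 CPM in MPP (-1.46 ± 0.12, adjusted p 1.18e-05). Birc5, which encodes survivin, was at 113, 128, 95.7 and 122 CPM in HSC and 43.7, 42.9, 36.4 and 43.7 CPM in MPP (-1.47 ± 0.14, adjusted p 4.17e-05). Libraries of the same population were within a narrow band for both genes, and the bands lay far apart. Cdca8 (borealin) differed by -1.29 ± 0.12 and Incenp, the scaffold, by -1.06 ± 0.16.

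At the centromere and kinetochore, 6 of 7 genes were lower in MPP. Spc24, a subunit of the NDC80 complex that grips microtubules, stood at 158, 185, 132 and 212 CPM in HSC and 72.1, 62.9, 42.9 and 74.8 CPM in MPP (-1.45 ± 0.19, adjusted p 0.000486). Ndc80 itself, at 81.3, 75.7, 96.5 and 87.9 CPM in HSC and 58.3, 40.2, 76.3 and 51.2 CPM in MPP, had a log2 difference of -0.60 ± 0.18 and did not pass (adjusted p 0.0555). The other subunits of the complex lay between these, with Nuf2 at -1.01 ± 0.19 and Spc25 at -0.996 ± 0.16. Cenpa, the histone H3 variant of centromeres, differed by -0.81 ± 0.15, and Cenpf, a large kinetochore protein, by -1.27 ± 0.26. Cenpe, the kinetochore kinesin, differed by -0.82 ± 0.23 and was lost in 7 of 14 alternatives.

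Of the 6 mitotic kinesins, 5 were lower in MPP. Kif11, the motor that pushes spindle poles apart, was at 166, 148, 165 and 151 CPM in HSC and 62.2, 47.4, 61.3 and 67.2 CPM in MPP (-1.41 ± 0.13, adjusted p 4.17e-05). Kif2c, a microtubule depolymerase, differed by -1.37 ± 0.20, Kif4, a motor of chromosome arms, by -1.13 ± 0.22, Kif20a, a midzone motor, by -0.98 ± 0.15 and Kif20b, a motor of late mitosis, by -0.91 ± 0.17. Kif23, the motor subunit of centralspindlin, did not differ beyond the spread, with 78.5, 53.7, 45.03 and 51.96 CPM in HSC, 66.6, 50.04, 55.3 and 42.8 CPM in MPP and a log2 difference of -0.10 ± 0.19 (adjusted p 0.817).

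All 6 spindle assembly genes were lower in MPP. Ckap2l, a spindle protein, was at 127, 109, 96.6 and 115 CPM in HSC and 40.1, 49.2, 53.3 and 37.3 CPM in MPP (-1.32 ± 0.15, adjusted p 0.000184), with no overlap. Hmmr, a microtubule-binding protein, differed by -1.18 ± 0.17, Nusap1, a microtubule bundler, by -1.04 ± 0.16, Dlgap5, which steadies kinetochore fibres, by -1.04 ± 0.23 and Tacc3, which crosslinks them, by -1.02 ± 0.14. Tpx2, the activator of Aurora A, had the smallest difference of the group at -0.95 ± 0.17. Cytokinesis gave 3 of 4 genes. Prc1, which bundles midzone microtubules, differed by -1.13 ± 0.15, Anln, the anillin of the contractile ring, by -1.24 ± 0.15, and Racgap1, the partner of KIF23 in centralspindlin, by -1.13 ± 0.11. Ect2, the exchange factor that activates RhoA for the ring, did not pass. It stood at 36.4, 65.4, 50.5 and 46.03 CPM in HSC and 50.2, 43.5, 59.6 and 42.8 CPM in MPP, and its log2 difference of -0.02 ± 0.19 (adjusted p 0.959) was smaller than its error.

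Chromosome structure genes were lower in all 8 cases. Top2a, the topoisomerase that untangles sister chromatids, was at 424, 489, 479.5 and 476 CPM in HSC and 212, 209, 279.9 and 179.9 CPM in MPP (-1.09 ± 0.14, adjusted p 0.00034). Mki67, which coats mitotic chromosomes and is the usual marker of cycling cells, was at 273, 195, 162 and 189.6 CPM in HSC and 83.5, 83.2, 103 and 77.4 CPM in MPP (-1.25 ± 0.16, adjusted p 0.00045). All HSC libraries exceeded all MPP libraries for both. The condensin subunits Ncapg (-1.01 ± 0.14), Ncaph (-0.88 ± 0.17) and Ncapd2 (-0.77 ± 0.14) were lower, as were Smc2 (-0.80 ± 0.16) and Smc4 (-0.65 ± 0.18), the condensin ATPases. The Smc4 call was lost in 6 of 14 alternatives. Cdca2, which recruits a phosphatase to chromatin, differed by -0.93 ± 0.18.

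**Figure D2:**
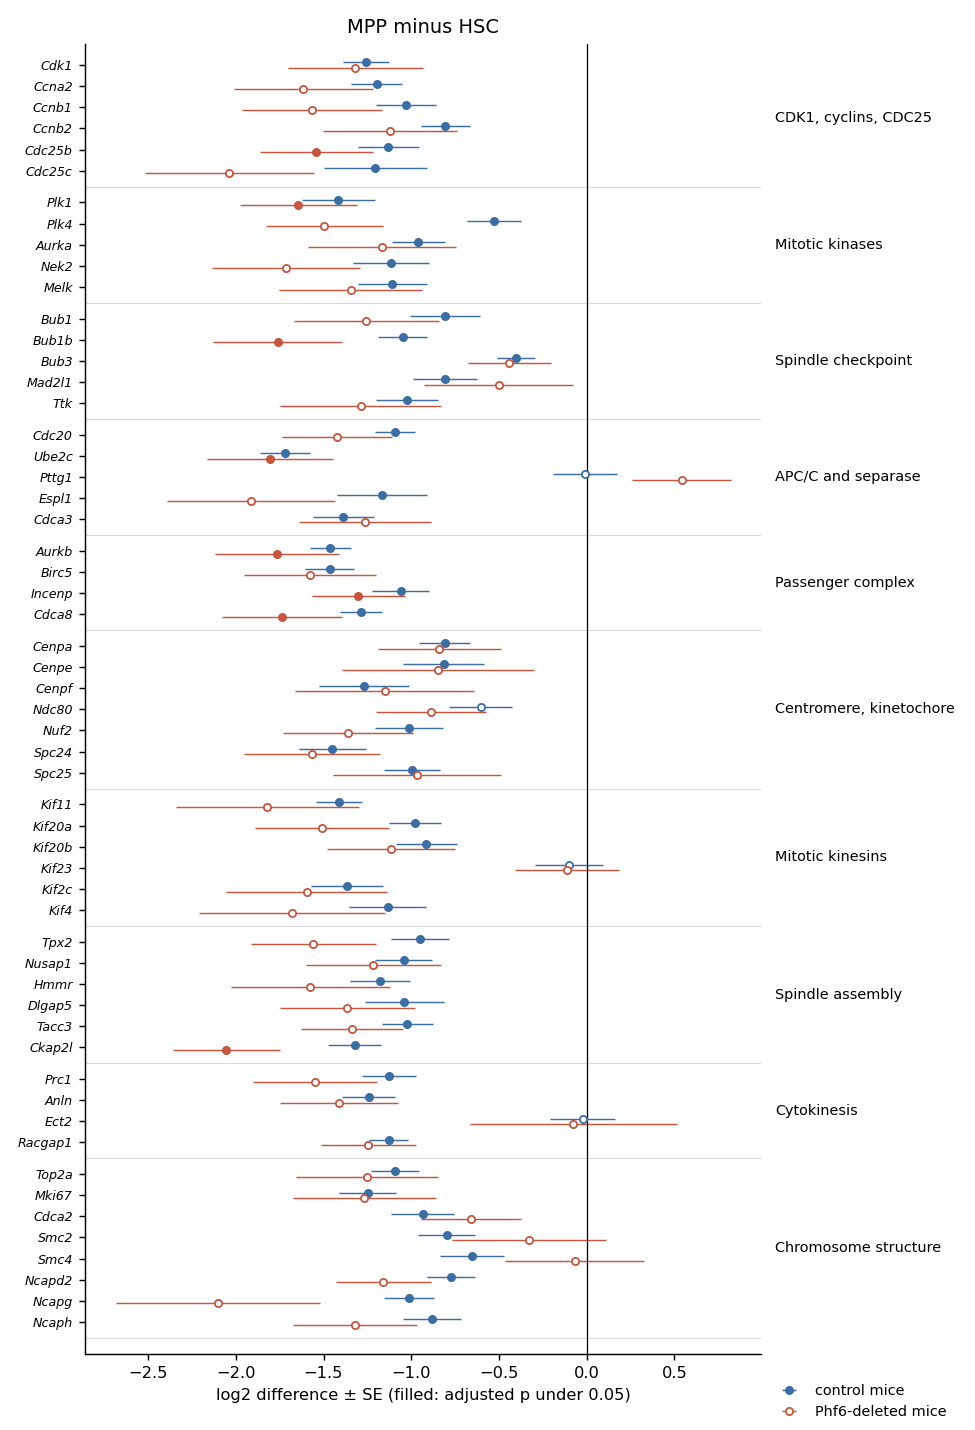
Log2 difference between MPP and HSC for each of the 56 genes, grouped by role, in control mice (blue) and in deleted mice (red); points are edgeR estimates, bars ± SE, and filled points passed an adjusted p of 0.05. In controls 52 points are filled and all 56 lie below 0, whereas in deleted mice the bars are wider and 8 are filled.

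A further list of 90 mitotic genes outside the 56 was read in the same fit. Of these, 49 were lower in MPP, against 4.78% of all genes tested, and 0 were higher, against 4.06%. Their median was -0.76, while that over all genes was -0.01. The 6 with the lowest p were Kif22, a chromosome arm kinesin (-1.29 ± 0.15), Gtse1, a microtubule tip protein (-1.62 ± 0.22), Pbk, a mitotic kinase (-1.17 ± 0.17), Knl1, a kinetochore scaffold (-1.32 ± 0.19), Cdca5, which encodes sororin (-0.99 ± 0.15), and Kif15, a spindle kinesin (-1.40 ± 0.21). The transcription factors of the programme were lower too, with a difference of -1.19 ± 0.21 for Foxm1 (adjusted p 0.00275) and, for Mybl2, which encodes B-MYB, of -1.25 ± 0.25 (adjusted p 0.00675).

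Markers of other marrow cells were read beside these values. Of 8 mature neutrophil markers, 0 passed between MPP and HSC of controls, all 8 were below 0 with a median of -0.91, none was at 0 in any library, and their summed level ran from 522 to 6622 CPM in HSC and from 171 to 2521 CPM in MPP. Of 5 granulocyte-monocyte progenitor markers, 0 passed, and their sum was 159 to 690 CPM in HSC and 218 to 729 CPM in MPP. Of 6 erythroid markers 1 passed, Epor at -2.498 ± 0.34, and the sum was 77.5 to 241 CPM in HSC and 33.3 to 174 CPM in MPP. None of the B lineage or T and NK cell markers tested passed. Their sums were 38.3 to 72.6 CPM (B lineage) and 136 to 180 CPM (T and NK) in HSC, and 83.1 to 153 and 137 to 213 CPM in MPP, and the defining markers Pax5, Cd3e, Cd3g and Cd8a were at 0 in most libraries. The part of these cells in the mitotic difference was not tested. Control mouse 3 had the lowest neutrophil sums of the controls in HSC and MPP, and its mitotic share was 0.63% in HSC and 0.38% in MPP. The HSC library of control mouse 1 had the highest neutrophil sum of the control HSC libraries, 6622 CPM. Its mitotic share, 0.718%, was also the highest of them.

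In Phf6-deleted mice the same genes were again lower in MPP than in HSC, with more spread between mice. Of the 56, 8 passed in the direction of lower in MPP, against 0.771% of all 13887 genes tested, and 0 in the other, against 0.641%. The median was -1.34 and 55 were below 0 (48.6% of all genes were), while the median over all genes was 0.02. In 31 the MPP libraries lay wholly below the HSC libraries, against 5.72% of all genes. Within deleted mice 1 to 4, 55, 55, 49 and 54 of the 56 were lower in MPP. The count of calls depended on the analysis, with 39 of 56 when the mouse was a replicate block (each mouse gave both libraries), 40 with DESeq2 and 21 with limma-voom. The share of all genes called lower in those fits was 1.27% (block), 3.17% (DESeq2) and 1.03% (limma-voom). The number of the 56 called was 16 without the HSC library of deleted mouse 4. It was 1 without any single other HSC library or without the MPP library of mouse 1 or 4. Without the MPP library of mouse 2 it was 3, without that of mouse 3 it was 2, and without both libraries of mouse 4 it was 5. In these fits 0.234 to 0.724% of all genes were called lower. Of the 8 neutrophil markers 0 passed in this comparison, with a median of -0.10 and sums of 1177 to 9317 CPM in HSC and 1237 to 12183 CPM in MPP. The B lineage marker Ighm passed as higher in MPP (3.32), and the erythroid marker Epor passed as lower (-2.60). None of the granulocyte-monocyte progenitor or T and NK cell markers tested passed. The part of all these cells was not tested.

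The 8 were Ckap2l, Cdca8, Aurkb, Ube2c, Plk1, Incenp, Bub1b and Cdc25b, 3 of them passenger complex genes. Ckap2l was at 158, 148, 129.5 and 88.8 CPM in the HSC libraries of deleted mice 1 to 4 and 31.3, 42.8, 36.7 and 17.4 CPM in their MPP libraries, a log2 difference of -2.05 ± 0.31 (adjusted p 0.0107). Ube2c was at 114, 91.3, 99.4 and 41.8 CPM in HSC and 34.1, 30.3, 22.3 and 14.1 CPM in MPP (-1.80 ± 0.36, adjusted p 0.0352). Aurkb was at 113, 125, 193 and 80.6 CPM in HSC and 53.4, 41.1, 39.5 and 18.96 CPM in MPP (-1.76 ± 0.35, adjusted p 0.0352). In each of these genes mouse 4 was the lowest in both populations, yet its own HSC library still exceeded its MPP library. Cdca8 differed by -1.74 ± 0.34, Plk1 by -1.64 ± 0.33, Bub1b by -1.76 ± 0.37, Cdc25b by -1.54 ± 0.32 and Incenp by -1.30 ± 0.27. Pttg1 was the single gene above 0, at 0.54 ± 0.28 (adjusted p 0.409). Of the 90 other mitotic genes 2 were lower, against 0.771% of all genes, namely Kif22 at -1.74 ± 0.31 and Troap at -1.92 ± 0.39. Foxm1 (-1.32 ± 0.31, adjusted p 0.0690) and Mybl2 (-1.85 ± 0.46, adjusted p 0.0807) did not pass.

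The order of the levels was read per length. In CPM per kilobase of the gene length in the count table, control HSC had Bub3 at 146 ± 12.9, Smc4 at 132 ± 29.7, Spc24 at 127 ± 25.7, Ube2c at 115 ± 13.4 and Ccnb2 at 107 ± 17.4 (mean ± SD, n = 4) as the 5 highest levels. These neighbours in the order do not differ beyond their spread. In control MPP the highest were Bub3 at 111 ± 1.03, Smc4 at 84.3 ± 18.8 and Ccnb2 at 61.4 ± 5.86, of which Bub3 stood above the next by more than either SD. Espl1 was the lowest in both, at 6.57 ± 2.79 in HSC and 2.94 ± 0.393 in MPP. In HPC-1, measured with the other kit, the order began with Top2a at 203 ± 15.7, Ncapd2 at 106 ± 9.10 and Smc4 at 105 ± 5.51 and ended with Pttg1 at 7.09 ± 1.66.

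Deletion of Phf6 moved none of the 56 genes past the threshold in HSC. The count was 0 of 56 with edgeR, where 0.0073% of 13693 genes passed, and also 0 with DESeq2 and with limma-voom. At an unadjusted p under 0.05 it was again 0, against 3.86% of all genes. The median log2 difference was -0.01, with 27 genes above 0 and 29 below (49.2% of all genes were below), and in none did the deleted and control libraries separate, against 1.57% of genes that separated upward and 1.59% downward. The share of counts was 0.725, 0.787, 0.765 and 0.434 percent in deleted mice 1 to 4, a mean of 0.678 ± 0.165, beside 0.684 ± 0.0420 in controls. The first 3 deleted libraries were above every control library, and the library of mouse 4 was below every one.

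The HSC values with the lowest unadjusted p went in both directions. Ncapg was at 171, 154, 175 and 80.6 CPM in deleted and 98.96, 106, 108 and 107 CPM in control HSC, a log2 difference of 0.47 ± 0.22 (unadjusted p 0.0579, adjusted p 0.998). Cdca2 was at 46.9, 64.9, 47.4 and 36.5 CPM in deleted and 82.2, 73.3, 61.6 and 48.9 CPM in control HSC (-0.44 ± 0.23, unadjusted p 0.0787). For both, deleted and control libraries overlapped. The others were Cenpe at 0.41 ± 0.23, Cdc25c at 0.61 ± 0.41, Cdca3 at -0.35 ± 0.25 and Ckap2l at 0.23 ± 0.20. Cdk1 was at -0.17 ± 0.24, Ccnb1 at 0.17 ± 0.30, Mki67 at -0.10 ± 0.29 and Top2a at -0.10 ± 0.17.

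In MPP the deletion likewise gave 0 of 56 genes with edgeR (0.029% of 13806 genes passed), DESeq2 or limma-voom. The median was -0.30 with 47 of the 56 below 0 (48.1% of all genes), and 2 genes had an unadjusted p under 0.05, against 8.09% of all genes. Plk4 was at 38.2, 57.2, 22.1 and 24.8 CPM in deleted mice 1 to 4 and 66.7, 49.8, 65.3 and 59.5 CPM in controls, a log2 difference of -0.77 ± 0.29 (unadjusted p 0.0213, adjusted p 0.597). Bub1b was at 48.2, 73.3, 33.6 and 22.4 CPM in deleted mice and 71.5, 71.6, 75.9 and 67.9 CPM in controls (-0.70 ± 0.31, unadjusted p 0.0430, adjusted p 0.616). In both genes deleted mouse 2 lay within the control range and the other 3 deleted mice below it. Next in order came Ncapd2 (-0.49 ± 0.23), Pttg1 (0.45 ± 0.24), Ckap2l (-0.50 ± 0.27) and Bub1 (-0.70 ± 0.38). The estimates did not all lie on the same side, with Smc2 (0.66 ± 0.42) and Smc4 (0.61 ± 0.38) above 0. Both had their highest deleted count in the library of mouse 3, although its total was the lowest of the deleted MPP libraries. Unscaled Smc2 counts were 3236, 3364, 5465 and 2288 in deleted mice 1 to 4, and Smc4 counts were 7094, 6916, 10640 and 5648. No gene separated deleted from control libraries, where 2.96% of all genes did so upward and 2.78% downward.

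The MPP median rested on the library of deleted mouse 4. Without it the median was -0.06 with 37 of 56 below 0, and without both mice of litter 4 it was -0.11 with 36 below 0. In HSC the median without that mouse was +0.18 with 11 below 0, and in HPC-1 +0.04 with 15 below 0. The MPP library of deleted mouse 3 also stood apart, with 14710 genes detected where the other MPP libraries had 15951 to 16479, and its differences from the control littermate were spread widely around a median of -0.45.

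**Figure D3:**
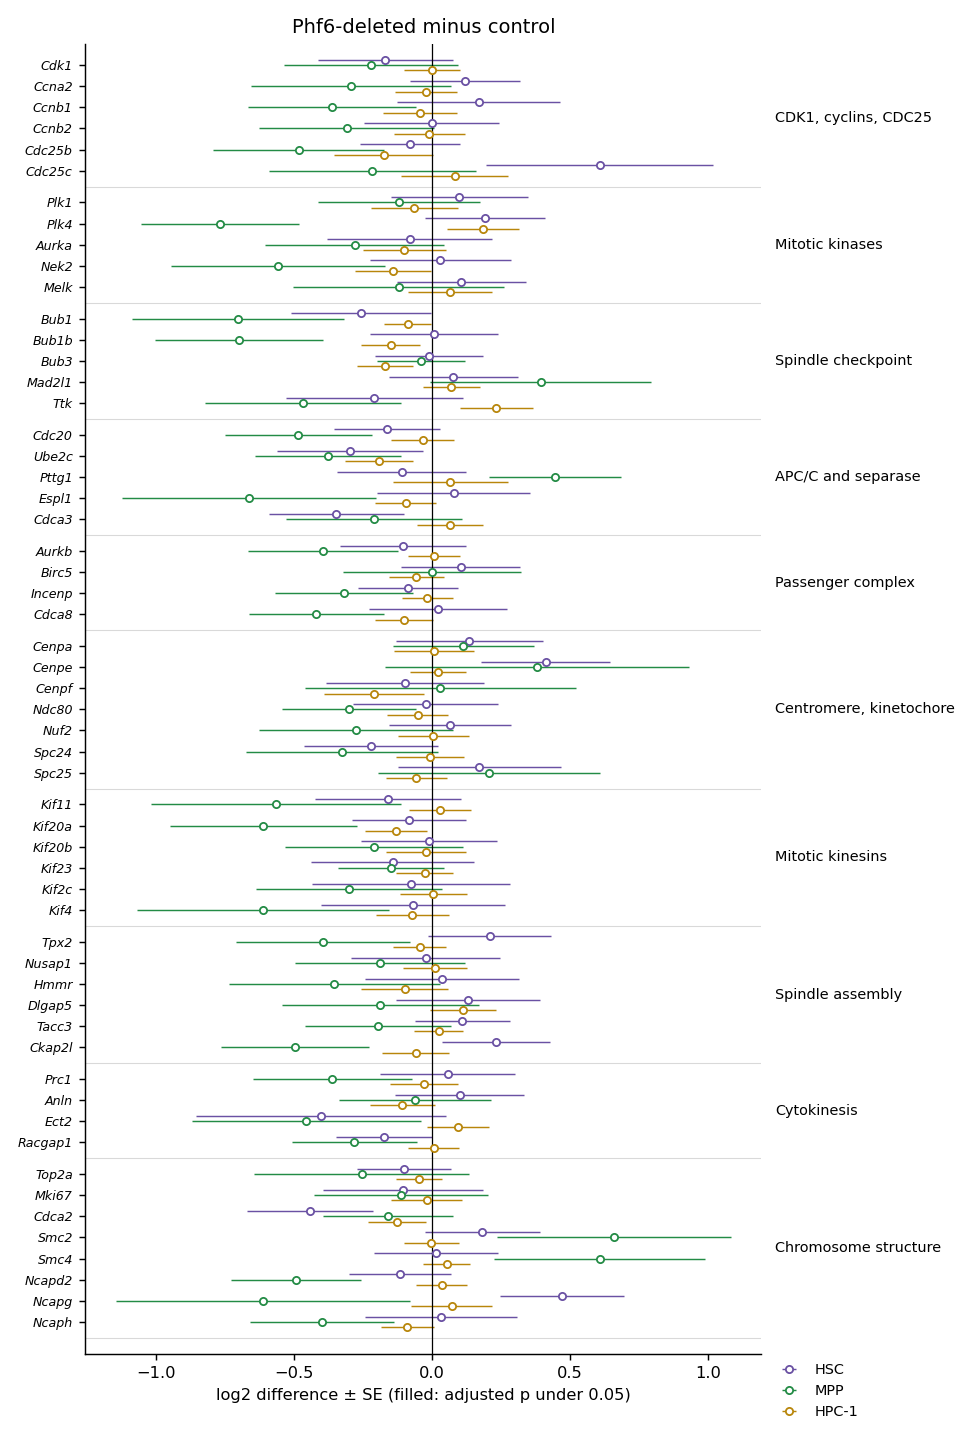
Log2 difference between deleted and control mice for each of the 56 genes in HSC (purple), MPP (green) and HPC-1 (yellow); points are edgeR estimates and bars ± SE, and a filled point would mark an adjusted p under 0.05. No point is filled, and the median over the genes is -0.01 (HSC), -0.30 (MPP) or -0.02 (HPC-1).

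HPC-1 also gave 0 of 56 genes with edgeR, against 0.0647% of 13907 genes, and 0 with DESeq2 and limma-voom. The median was -0.02 with 34 below 0 (50.7% of all genes). Of the 56, 0 genes had an unadjusted p under 0.05 (4.99% of all genes had), and none separated the groups, where 1.58% of genes did upward and 2.08% downward. The mitotic share was 0.954, 0.938, 0.857 and 0.694 percent in deleted mice 1 to 4 and 0.881, 0.935, 0.862 and 0.819 percent in controls, with means of 0.861 ± 0.119 and 0.874 ± 0.0484. Cdk1 stood at 177, 173, 140.3 and 141 CPM in deleted and 166, 158, 139 and 168 CPM in control mice, a log2 difference of 0.00 ± 0.10. The lowest unadjusted p belonged to Ttk, at 59.2, 62.3, 65.97 and 44.6 CPM in deleted and 51.96, 52.7, 43.04 and 49.8 CPM in control mice (0.23 ± 0.13, unadjusted p 0.0988, adjusted p 0.999). Then came Bub3 (-0.17 ± 0.10), Ube2c (-0.19 ± 0.12), Plk4 (0.18 ± 0.13), Bub1b (-0.15 ± 0.11) and Cdca2 (-0.13 ± 0.11). Of the 90 other mitotic genes, 0 passed for deletion in any of the 3 populations, against 0.0073% (HSC), 0.029% (MPP) and 0.0647% (HPC-1) of all genes.

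**Figure D4:**
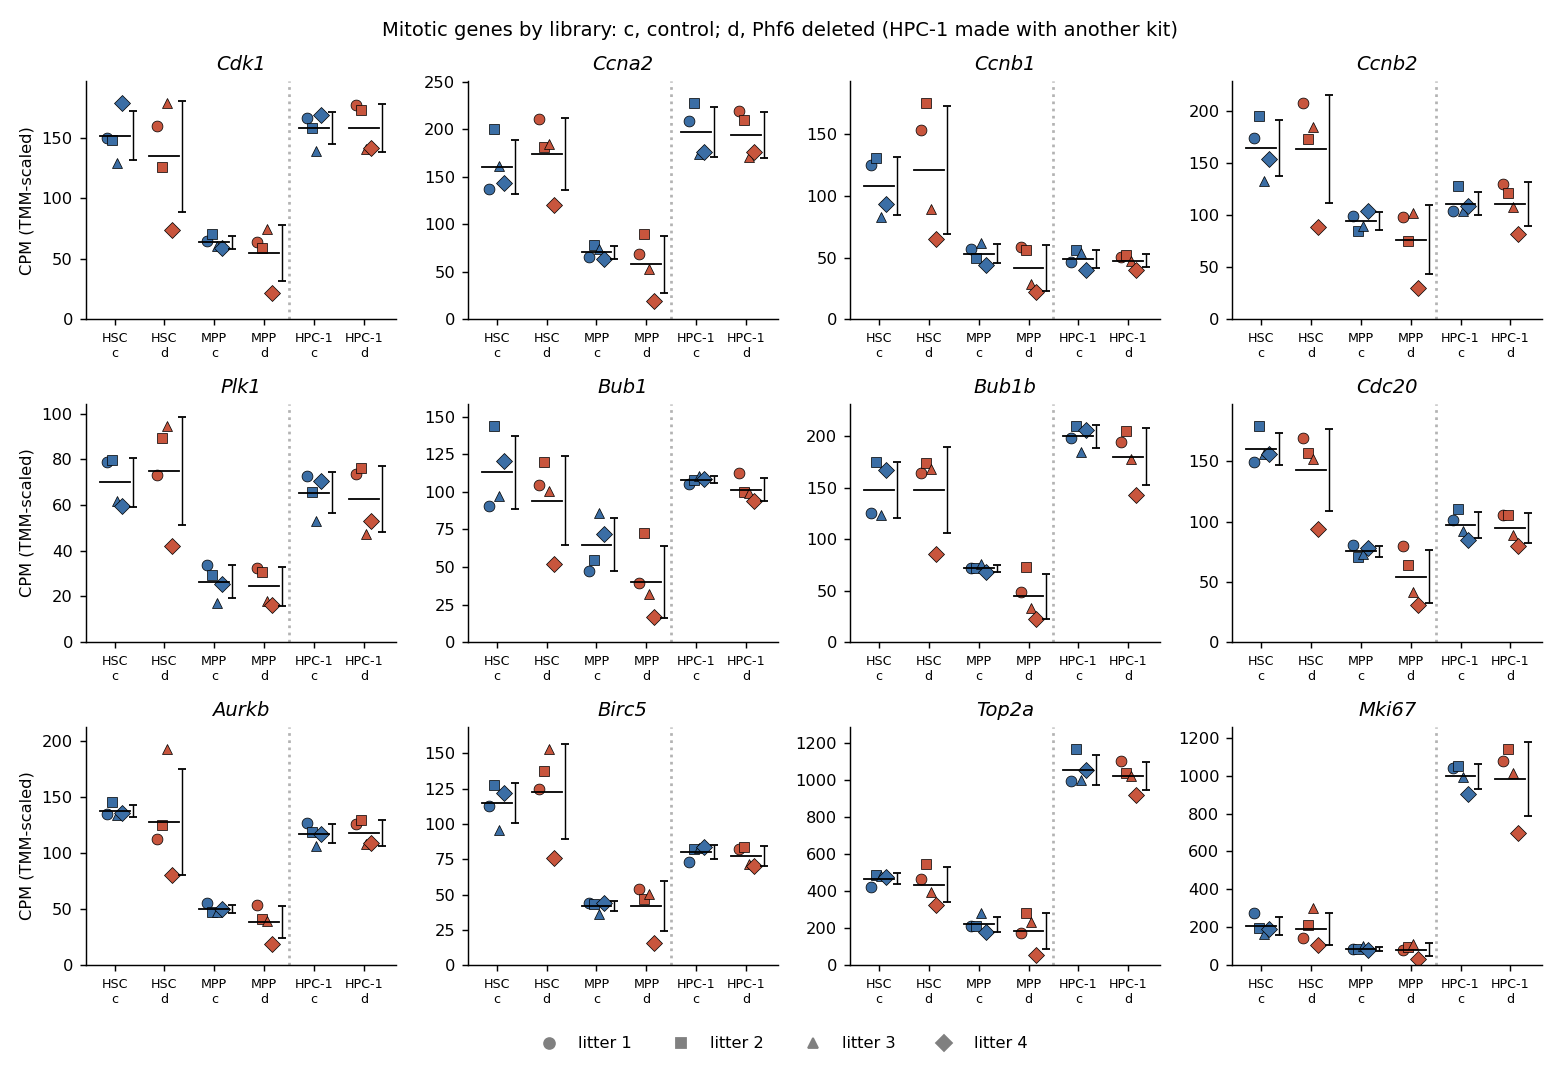
CPM (linear axis from 0) of 12 of the mitotic genes in every library, for control (c, blue) and deleted (d, red) mice of each population; points are libraries shaped by litter, lines are means and side bars mean ± SD of 4 libraries. HSC controls lie above MPP controls in each panel, and the library of deleted mouse 4 (red diamond) is low in HSC and MPP; HPC-1, right of the dotted line, was made with another kit.

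Deleted mouse 4 carried lower mitotic gene levels than the other deleted mice in all 3 populations. In HSC its share was 0.434%, where the mean of the other 3 was 0.759%. The MPP share was 0.171% beside 0.357%, and that of HPC-1 was 0.694% beside 0.916%. Of the 56 genes, 53 were at their lowest of the 4 deleted HSC libraries in this mouse, where 26.2% of all genes were. In MPP the number was 49 (23.2% of all genes), and in HPC-1 it was 45 (31.2%). In all 3 populations at once it was 38 of 56, against 3.7% of 12843 genes, and it was 0 for deleted mice 1, 2 and 3 (1.22, 1.01 and 5.33% of genes). For control mice 1 to 4 the same count was 1, 0, 4 and 2 (2.2, 1.77, 5.16 and 4.04% of genes). This mouse was singled out after its values were seen, so these counts describe it and carry no test.

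Set against its control littermate, deleted mouse 4 had 55 of 56 genes lower in HSC, with a median of -0.60, where 49.2% of all genes were lower. For MPP the number was 54 (median -1.23, and 49.8% of all genes), and for HPC-1 also 54 (median -0.25, and 51.7%). Litters 1, 2 and 3 had 22, 22 and 8 genes lower in their HSC. Their MPP had 38, 22 and 35, and their HPC-1 11, 31 and 27. Cdc20 was at 93.5 CPM in the HSC of deleted mouse 4 where its littermate had 156 CPM, and at 31.02 against 78.5 CPM in MPP. For Mki67 the HSC of this mouse had 105 CPM against 189.6 in the littermate, its MPP 32.4 against 77.4 and its HPC-1 699 against 905. Each value of the deleted mouse was the lower of the pair.

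Neutrophil markers were highest in this mouse in all 3 populations. The summed level of the 8 markers, all of them detected in each library, was 9317 CPM in its HSC library, the highest of the group, where the other deleted mice had 1177 to 3600 CPM and controls 522 to 6622 CPM. Its MPP library had 12183 CPM, beside 1237 to 2830 CPM in the others and 171 to 2521 CPM in controls. The HPC-1 library had 2446 CPM, beside 282 to 956 and 343 to 1205 CPM. The 5 granulocyte-monocyte progenitor markers summed to 993 CPM in its HSC, the highest of that group. They were at 847 CPM in its MPP, where mouse 1 had 881 CPM, and at 4921 CPM in its HPC-1, where mouse 2 had 4960.4 CPM. The 6 B lineage markers summed to 362 CPM in its MPP, beside 135 to 169 CPM in the other deleted mice and 83.1 to 153 CPM in controls. In its HSC (56.8 CPM) and HPC-1 (1377 CPM) they lay within the range of the other deleted mice, as did its erythroid and its T and NK sums in all 3 populations. The part of other cells in the low mitotic values of this mouse was not tested.

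**Figure D5:**
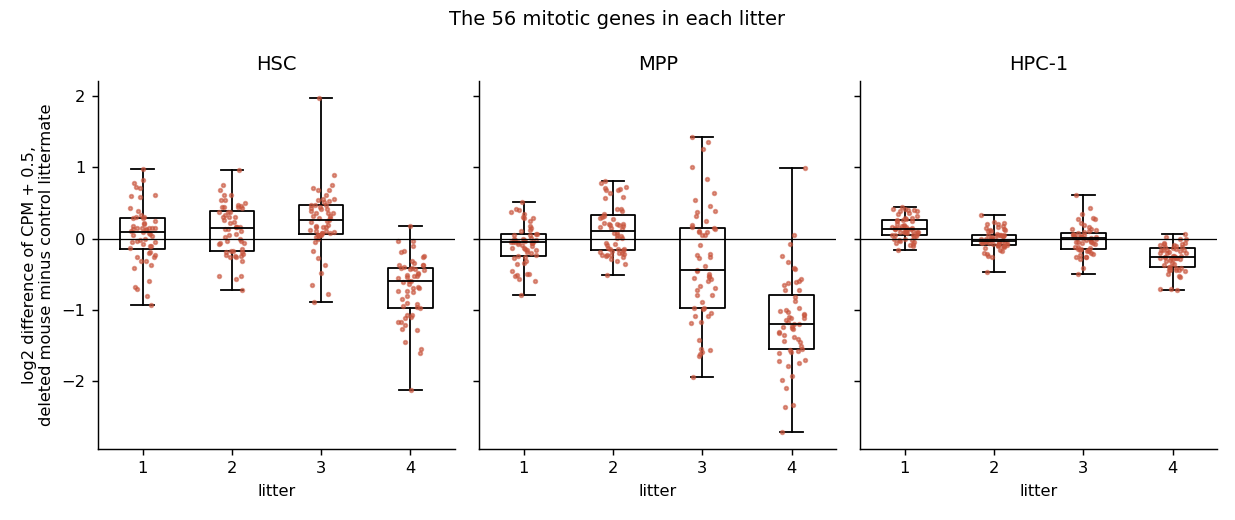
Log2 difference of CPM + 0.5 between the deleted mouse and its control littermate for each of the 56 genes, by litter, in HSC, MPP and HPC-1; dots are genes, boxes span the quartiles with the median inside, and whiskers reach the lowest and highest gene. Litter 4 has medians of -0.60, -1.23 and -0.25, below those of the other litters in each population.

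A difference of the deletion effect from population to population was tested in edgeR with an interaction term over all libraries of the populations compared. None of the 56 genes passed in any of the 3 tests with edgeR, DESeq2 or limma-voom, and 0 of all genes passed with edgeR. For MPP minus HSC the median was -0.24, with 2 of the 56 at an unadjusted p under 0.05 (2.86% of all genes), Plk4 at -0.95 ± 0.37 (unadjusted p 0.0209) and Ckap2l at -0.72 ± 0.34 (unadjusted p 0.0478). Next came Bub1b (-0.69 ± 0.40), Ncapg (-1.07 ± 0.63), Pttg1 (0.56 ± 0.33) and Tpx2 (-0.59 ± 0.41). The median was -0.04 without the MPP library of deleted mouse 4, -0.45 without its HSC library and -0.24 without both. For HPC-1 minus HSC the median was -0.03 and 0 of the 56 had an unadjusted p under 0.05, against 3.46% of all genes. Cenpe (-0.39 ± 0.26), Cdca3 (0.41 ± 0.29), Ncapg (-0.40 ± 0.29), Cdca2 (0.32 ± 0.25), Ckap2l (-0.29 ± 0.24) and Ttk (0.44 ± 0.37) had the lowest p. For HPC-1 minus MPP the median was 0.28, or 0.14 without both libraries of deleted mouse 4, and 1 of the 56 had an unadjusted p under 0.05 (4.48% of all genes), Plk4 at 0.94 ± 0.33 (unadjusted p 0.0101). Ncapd2 (0.52 ± 0.25), Ttk (0.69 ± 0.40), Bub1b (0.54 ± 0.34), Bub1 (0.61 ± 0.41) and Cdc20 (0.44 ± 0.30) followed.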

How the data were processed

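The authors deposited whole-number read counts for each gene. Per the submitters' processing notes, the tools were bcl2fastq and featureCounts and the build mm10. Aligner, annotation, versions and the strand option: not given in the sources used here. The deposited table, which also holds a gene length by the authors, equalled the 24 sample files. Of 27179 Entrez identifiers, 25275 were named from a RefSeq table of GRCm38.p6.

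Each comparison was fitted on the whole table in R 4.3.3 with the robust quasi-likelihood test of edgeR 4.0.16, after TMM scaling and its standard filter (minimum count 10, minimum total 15), and p was adjusted over all genes tested by the Benjamini-Hochberg method, at 0.05. The SE is the log2 difference over the square root of F. CPM are on TMM-scaled totals. Alternatives were DESeq2 1.42.0, limma-voom (limma 3.58.1), other size factors, no filter, a replicate block and each library left out. The fit was also run on simulated counts, whose outcome is not given here, and no result above rests on it.

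The 56 members, the lists and the tests were chosen with earlier results of these data known. Named were, between MPP and HSC of controls, every member that was called, and elsewhere all members called (up to 12) or, with none, the 6 with the lowest p. Of the other mitotic genes up to 6 called, Foxm1 and Mybl2 were named. Any further member with values was chosen after they were seen.

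Numbers pair the samples by the labels: litter within a population, and the same mouse between populations. Across genes, the deviations of libraries with the same number correlated at 0.15 to 0.32 between MPP and HSC of controls and at 0.02 to 0.38 in deleted mice. Libraries with different numbers reached at most 0.01 there in controls and 0.10 in deleted mice. Between littermates the correlation was 0.01 to 0.06 for HSC, at most 0.15 for MPP, and 0.08 to 0.38 for HPC-1. For deleted and control mice of different litters it reached 0.06 (HSC), 0.14 (MPP) and 0.12 (HPC-1). The HSC and MPP values thus do not show the litter pairing, which rests on the labels. The main fits had no block for mouse or litter, so p-values measure the spread between these mice within each group and ignore the pairing.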

Additional observations from a re-analysis of the deposited data

Results flagged for a closer look

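In a group of 4 libraries, a lowest or highest value was picked out when its gap to the nearest other took up more of the whole range than Dixon's 95% critical value allows. This was applied to 84 groups of the mitotic shares, mean levels and 12 main genes, and 6 were picked out, where chance alone picks about 1 in 20. Deleted mouse 4 accounted for 3 of them. Its HSC library had a mean level over the 56 genes of -0.13 (log2 CPM centred over libraries), far below the other deleted HSC libraries. In MPP its mitotic share of counts was 0.171%, and in HSC its Bub1b level was 85.4 CPM, each the lowest of the group. The other 3 were in controls. Aurkb in the HSC library of mouse 2 was at 145 CPM, the highest of a tight group. Birc5 was at 36.4 CPM in the MPP library of mouse 3 and at 72.9 CPM in the HPC-1 library of mouse 1, the lowest of each group. No gene of the 12 had all litters moving one way in one population and all the opposite way in another.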

How the results depend on the processing

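Between MPP and HSC of control mice 52 members were called in the main analysis, where 4.78% of all genes were called lower. The number was 50 to 53 under other settings (53 with the replicate block) and 45 to 51 when 1 library was left out. The share of all genes in those fits is not given here. The median of the members kept its sign. In deleted mice the number, 8 in the main analysis, was 40 with DESeq2, 21 with limma-voom, 39 with the replicate block (mouse as block), 5 without all libraries of deleted mouse 4, which was chosen after seeing the data, and 1 to 16 when 1 library was left out. Of all genes, 3.17% (DESeq2), 1.03% (limma-voom) and 1.27% (block) were called lower in those fits, and 0.771% in the main analysis. The cause of the differences in number was not tested. For deletion and for the differences in its effect, 0 members were called under each alternative run, blocked fits included. With 1 library left out, the deletion median ran from -0.09 to 0.18 for HSC, from -0.44 to -0.06 for MPP and from -0.09 to 0.04 for HPC-1. Leaving out both mice of litter 4 was also chosen after seeing the data. Errors in deleted MPP limit what could be called there, and a p above the threshold does not show equal levels.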
